A study of Mus musculus with 6 samples.

Results

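Transcripts of the cadherin superfamily were followed in 3D gastruloids, self-organising aggregates grown here from E14 mouse embryonic stem cells. One group had 80 h of budesonide, a synthetic glucocorticoid, and the other no treatment. Members were taken by symbol: every Cdh, solitary Pcdh, clustered Pcdh, Celsr, Fat and Dchs gene with a number, which gave 101 of the 53819 genes in the deposited count table. They were 23 Cdh genes, 12 solitary protocadherins, 57 protocadherins of the alpha, beta and gamma clusters and 9 genes of the Celsr, Fat and Dchs families. There were 3 budesonide and 3 untreated libraries of stranded, polyadenylated RNA, and both groups were E14 aggregates with no genetic change named in the labels. A vehicle or a harvest time for the untreated group is not given in the labels. Separate cultures are not stated for the replicates either, and the p-values therefore cover the variation among these libraries alone, which could be technical. The series title links cell-cell adhesion with symmetry breaking, and the comparison asked how transcripts of the adhesion receptors stood with budesonide.

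Cadherins are calcium-dependent adhesion receptors built from repeated extracellular domains. Classical cadherins of type I and type II bind like molecules on the next cell and hold the actin cytoskeleton through catenins at the adherens junction, and E-cadherin (Cdh1) is the main one of embryonic stem cells and the epiblast. Its replacement by other cadherins accompanies the epithelial to mesenchymal transition at the primitive streak. Protocadherins are mostly neural. Those of the clusters give neurons individual surface identities, and those of the alpha and gamma clusters are expressed from alternative first exons spliced to shared constant exons. Fat and Dchs proteins are giant cadherins that bind each other across cells and, like the Celsr proteins, act in planar cell polarity, the orientation of cells within a sheet.

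The libraries held 5666168 to 7476862 counted reads, and the members took 0.195%, 0.185% and 0.190% of the reads in the budesonide libraries and 0.204%, 0.195% and 0.198% in the untreated libraries. Levels are given in CPM, the counts relative to the library total after TMM scaling between libraries. A gene with 3 reads had 0.422 to 0.552 CPM, depending on the library. A total of 64 members had enough reads for a test. Of these, 47 passed the minimum level, 10 reads at the median depth, in every library of both groups, 10 in every untreated library only, 4 in every budesonide library only, and 3 through a mixture. As a measure of background, 1469 olfactory and vomeronasal receptor genes had a 95th percentile of 0.379 CPM per kb of exon in budesonide and 0.405 CPM per kb in untreated libraries. By that measure 40 members lay above background in both groups, 14 in the untreated group only, 2 in the budesonide group only and 45 in neither. All 6 tested markers of streak and tailbud (Mixl1, Eomes, T, Cdx2, Nkx1-2 and Fgf8) fell, against 13.5% of all tested genes. The summed level of the 8 listed genes was 20.3 ± 2.07 CPM in budesonide and 288.4 ± 8.60 CPM in untreated libraries (SD, n = 3 each). In bulk RNA fewer cells of a type and less RNA per cell cannot be told apart, and the part of such cells in the falls below was not tested.

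With budesonide 17 of the 64 tested members fell and 2 rose (edgeR quasi-likelihood test, adjusted p under 0.05 over all 17155 tested genes). Those are 26.6% and 3.12% of the tested members, where 13.5% of all tested genes were lower and 15.2% higher. The median log2 fold change was -0.29 over the tested members and -0.02 over all tested genes. Fallen members were found among the type I, type II and other Cdh genes, the Celsr, Fat and Dchs genes, the delta protocadherins and the gamma cluster. The 2 that rose were Fat1 and Cdh4. More than 2-fold falls were found for 9 of the 64 tested members, against 3.46% of all tested genes, and no member rose more than 2-fold. The budesonide and untreated libraries did not overlap in CPM for 25 of the 64 tested members, against 39.6% of all tested genes. Of the 64, 21 were apart and lower, against 19.8% of all tested genes. Of the 19 calls, 14 were kept under each of the 14 alternative fits. Of the 19, 4 reached the minimum level in every library of the untreated group only (Pcdh7, Pcdh11x, Pcdh18 and Cdh10). These 4 are among the 9 with falls of more than 2-fold. A minimum level met through the untreated group favours falls, so that count and the median carry this limit. Per kb, 11 of the 19 lay above the receptor background in both groups, 7 in the untreated group only (Pcdh7, Pcdh18, Fat3, Dchs1, Cdh10, Cdh11 and Pcdhgc5) and Pcdh11x in neither. The balance of all genes depended on scaling: 52.9% of all calls were higher, and 38.6% with library totals alone.

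**Figure D1:**
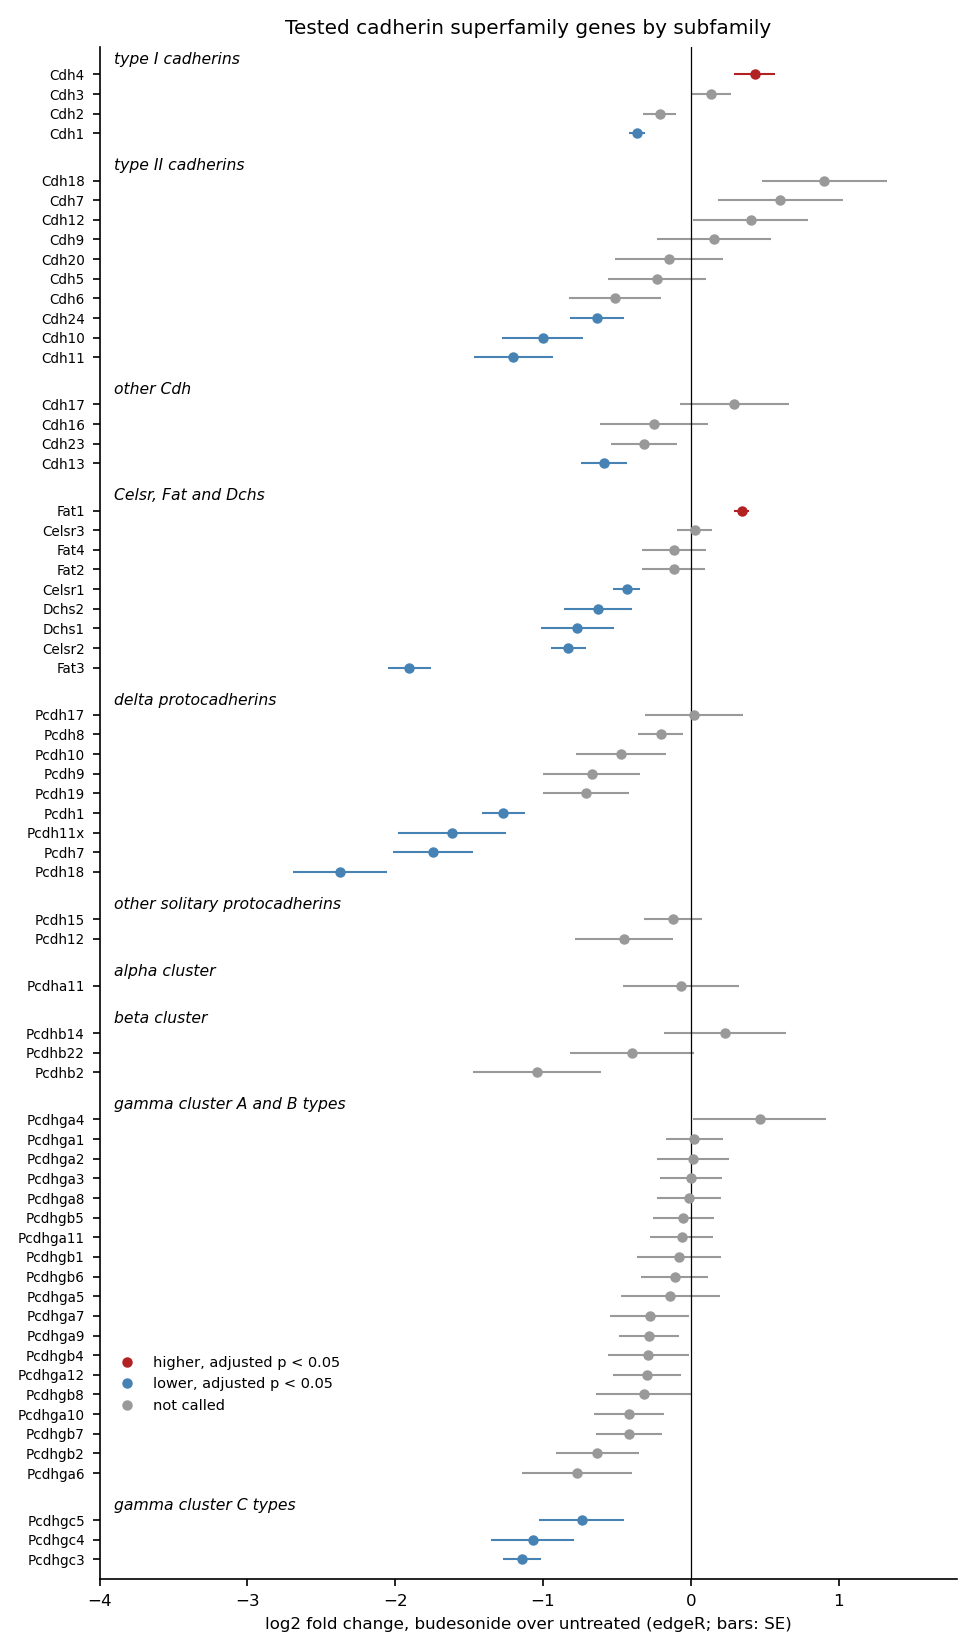
Log2 fold change (budesonide over untreated, x axis) with its standard error for the 64 tested members, by subfamily, coloured by the edgeR call at an adjusted p under 0.05. Most called members lie left of 0, with Pcdh18 farthest at -2.38, and Fat1 and Cdh4 are the 2 called members to the right.

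Among the type I cadherins, E-cadherin remained the dominant transcript and fell by 0.36 ± 0.06 (SE) on the log2 scale, while R-cadherin (Cdh4), known from the developing nervous system and muscle, rose. Cdh1 stood at 353.5, 309.5 and 327.1 CPM in the budesonide libraries, against 437.8, 416.5 and 420.9 CPM in the untreated libraries, so that every treated library lay under every untreated one (edgeR adjusted p = 1.31e-06). Cdh1 held 84.2% ± 0.756 of the type I reads in budesonide and 87.9% ± 0.212 in untreated libraries (SD, n = 3 each), a share that no library scaling can change. Cdh4 had 17.05, 18.5 and 23.2 CPM with budesonide, against 15.2, 12.9 and 15.1 CPM without. Its groups did not overlap, and its log2 fold change was 0.43 ± 0.14 (SE; edgeR adjusted p = 0.0154). The call of Cdh4 did not hold throughout. It was lost in DESeq2 (adjusted p = 0.0754), with library totals alone (edgeR, 0.0518), without budesonide replicate 3 (0.141) and without untreated replicate 2 (0.0967). The adjusted p was 0.00885 to 0.141 over all alternatives.

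The other type I cadherins did not pass the test. P-cadherin (Cdh3), the direct neighbour of Cdh1 with no protein-coding gene between them, was at 18.9, 16.2 and 18.8 CPM in budesonide and 16.8, 16.6 and 15.4 CPM in untreated libraries. Its groups overlapped (log2 fold change 0.14 ± 0.13, SE). N-cadherin (Cdh2), the cadherin of neural and mesodermal cells, had 25.4, 23.8 and 21.1 CPM in budesonide libraries, against 28.7, 25.6 and 27.7 CPM in untreated libraries. It lay lower in each treated library, but the log2 fold change of -0.21 ± 0.11 (SE) missed the threshold (edgeR adjusted p = 0.171). M-cadherin (Cdh15), a gene of skeletal muscle, had 7, 10 and 4 reads in budesonide and 4, 8 and 4 reads in untreated libraries, too few for a test. The summed level of the 5 type I genes was 392.0 ± 23.1 CPM with budesonide and 483.8 ± 13.7 CPM without (SD, n = 3 each), and the groups did not overlap.

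Of the 13 type II cadherins, 10 could be tested, 3 fell (30%, against 13.5% of all tested genes) and none rose (15.2% of all). At an unadjusted p under 0.05, 1 was higher by edgeR (Cdh18), 1 by limma and 0 by DESeq2. OB-cadherin (Cdh11), a marker of mesenchyme, had 2.11, 3.24 and 2.57 CPM in the budesonide libraries, against 6.55, 6.05 and 5.66 CPM in the untreated libraries, and was 2.30-fold lower (log2 fold change -1.20 ± 0.27, SE; edgeR adjusted p = 0.000368). Its budesonide mean of 0.297 CPM per kb lay within the receptor background. Cdh24, which binds catenins like other type II members, stood at 6.62, 6.33 and 9.38 CPM with budesonide and 12.04, 12.1 and 10.1 CPM without. The groups of Cdh24 stood apart by a small margin (log2 fold change -0.64 ± 0.18, SE), and DESeq2 did not call it (adjusted p = 0.0776, in a range of 0.00131 to 0.0776 over the alternatives).

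Cdh10, a brain cadherin, was the least even of the fallen members. It had 3.804, 5.30 and 1.29 CPM in the budesonide libraries, against 8.23, 6.19 and 7.23 CPM in the untreated libraries. Budesonide replicate 3 was by far the lowest, with 7 reads. The log2 fold change was -1.001 ± 0.27 (SE; edgeR adjusted p = 0.00448), and it was -0.66 without budesonide replicate 3. The 7 remaining tested type II genes had log2 fold changes from -0.51 to 0.90 and were not called. VE-cadherin (Cdh5), which holds endothelial cells together, had 1.83, 3.24 and 2.76 CPM with budesonide and 3.81, 3.23 and 2.04 CPM without. Its groups overlapped. Of the 7 tested endothelial markers, 2 rose, Pecam1 and Tek (28.6%, against 15.2% of all tested genes). Kdr, Flt1, Tie1, Egfl7 and Cdh5 itself were not called. Cdh8, Cdh19 and Cdh22 had too few reads for a test, between 3 and 14 in any library.

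The remaining Cdh genes are built differently from the classical ones. T-cadherin (Cdh13), which is anchored to the membrane by a lipid and lacks a cytoplasmic tail, fell. Its levels were 10.7, 12.7 and 7.91 CPM in budesonide and 15.7, 16.2 and 15.7 CPM in untreated libraries. The untreated libraries were close together and all above the treated ones (log2 fold change -0.59 ± 0.16, SE; edgeR adjusted p = 0.00290). Cdh16 and Cdh17, cadherins with 7 extracellular repeats known from kidney and intestine, and Cdh23, a tip-link protein of hair cells, did not pass the test, with log2 fold changes of -0.25, 0.29 and -0.32. Cdh26 had 8 to 11 reads per library and was not tested.

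**Figure D2:**
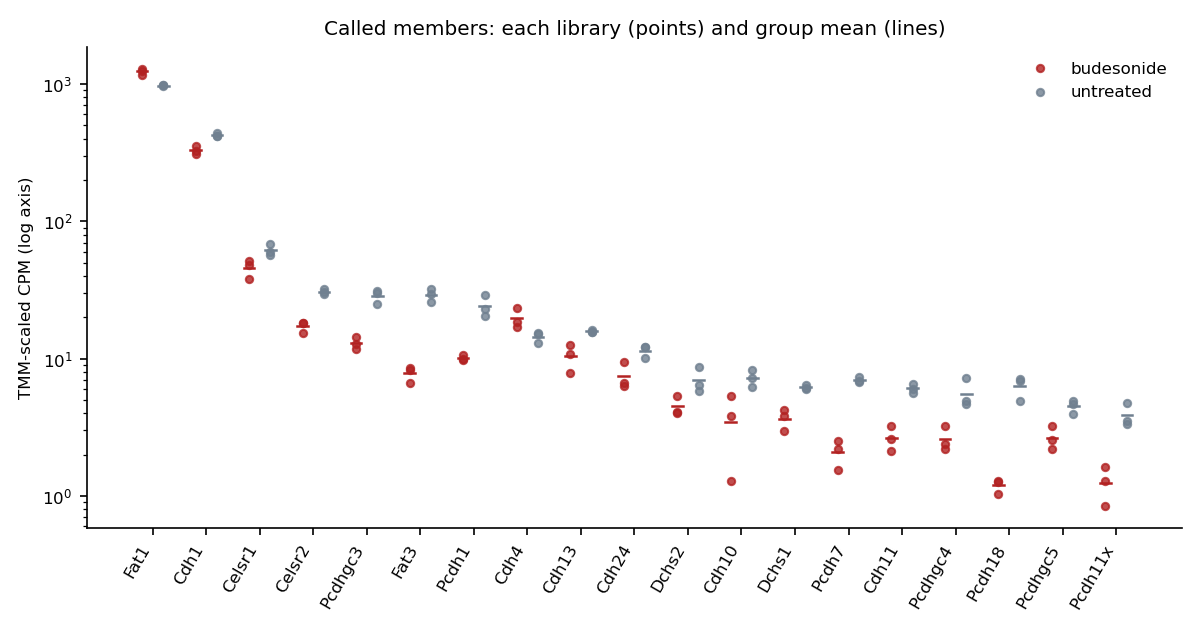
TMM-scaled CPM (y axis, log scale) of the 19 called members in each library, budesonide left of untreated for each gene, with lines at the group means. Fat1 and Cdh1 stand far above the rest. The groups do not overlap in any of the 19 genes, which were chosen by their calls in these same libraries.

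The giant cadherins changed in opposite directions. All 9 Celsr, Fat and Dchs genes were tested, 5 fell and 1 rose. Those are 55.6% and 11.1%, against 13.5% and 15.2% of all tested genes. Fat1, a receptor of epithelial cell contacts that acts on actin and Hippo signalling, was the most abundant member. It stood at 1288, 1164 and 1248 CPM in the budesonide libraries, against 974.8, 958.8 and 984.2 CPM in the untreated libraries. All treated libraries lay above all untreated ones, and the rise was 1.27-fold (log2 fold change 0.34 ± 0.05, SE; edgeR adjusted p = 8.15e-07). Fat3, a family member of neurons in which it shapes dendrites, fell to 6.62, 8.54 and 8.27 CPM in the budesonide libraries, against 32.3, 29.4 and 25.6 CPM in the untreated libraries. That is 3.74-fold lower (log2 fold change -1.90 ± 0.14, SE; edgeR adjusted p = 5.84e-15), the smallest adjusted p among the members. Fat2 and Fat4 had overlapping groups and log2 fold changes of -0.11 ± 0.21 and -0.11 ± 0.22 (SE).

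Reads of Fat1 made up 62.3% ± 0.942 of all member reads in budesonide and 49.7% ± 0.564 in untreated libraries (SD, n = 3 each). Cdh1 made up 16.7% ± 0.495 in budesonide and 21.7% ± 0.309 in untreated libraries. Per kb of exon, Fat1 averaged 78.8 CPM and Cdh1 72.1 CPM in budesonide libraries. In untreated libraries Fat1 averaged 62.1 CPM per kb and Cdh1 92.9 CPM per kb, so the order of the 2 leading members was the other way round. Next in untreated libraries came Celsr1 at 5.62 CPM per kb.

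The Dachsous genes Dchs1, whose product binds Fat4 on the neighbouring cell, and Dchs2 fell as well. Dchs1 had 3.804, 2.94 and 4.23 CPM in budesonide and 6.10, 6.05 and 6.44 CPM in untreated libraries (log2 fold change -0.77 ± 0.25, SE; edgeR adjusted p = 0.0140). Dchs2 had 4.09, 5.30 and 4.04 CPM in budesonide and 5.79, 6.47 and 8.64 CPM in untreated libraries (-0.63 ± 0.23, SE; adjusted p = 0.0359). The budesonide and untreated libraries stood apart in both genes, but neither call held throughout. Dchs1 was lost in DESeq2 (adjusted p = 0.112), without untreated replicate 3 (edgeR, 0.0511) and without budesonide replicate 2 (0.0867). Dchs2 was lost in DESeq2 (0.183), with no filter on low counts (edgeR, 0.0543), and without untreated replicate 2 (0.0528), untreated replicate 3 (0.262), budesonide replicate 1 (0.136) or budesonide replicate 3 (0.102).

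Of the Celsr genes, which encode the 7-pass transmembrane cadherins at the core of planar polarity, 2 of 3 fell. Of all tested genes 13.5% were lower. Celsr2 was at 18.0, 18.2 and 15.3 CPM in budesonide libraries, against 29.4, 30.5 and 32.2 CPM in untreated libraries, 1.78-fold lower (log2 fold change -0.83 ± 0.12, SE; edgeR adjusted p = 1.68e-07). Celsr1 was at 47.9, 38.3 and 51.5 CPM in budesonide libraries, against 59.6, 57.2 and 68.7 CPM in untreated libraries, 1.35-fold lower (-0.43 ± 0.09, SE; adjusted p = 0.000215). The treated libraries were lower throughout in both genes. Celsr3, the most neural of the family, had 22.0, 21.9 and 20.6 CPM with budesonide and 22.9, 19.97 and 20.7 CPM without, and was not called (0.03 ± 0.12, SE; adjusted p = 0.909).

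Delta protocadherins, solitary genes with conserved cytoplasmic motifs, included the member with the largest fall, Pcdh18. Of 10, 9 could be tested, 4 fell (44.4%, against 13.5% of all tested genes) and none rose (15.2% of all). At an unadjusted p under 0.05 no delta gene was higher by edgeR, DESeq2 or limma and 6 were lower by edgeR. Of the 9 log2 fold changes, 8 were below 0 (median -0.71), but 3 of the 4 fallen genes reached the minimum level in every library of the untreated group only. Pcdh18 had 1.27, 1.03 and 1.29 CPM in budesonide libraries, against 6.86, 4.92 and 7.07 CPM in untreated libraries, 5.19-fold lower (log2 fold change -2.38 ± 0.32, SE; edgeR adjusted p = 5.16e-08). Its treated libraries held 9, 7 and 7 reads, so the size of the fall rests on few reads. Pcdh7, which is widely expressed and binds the phosphatase PP1α, had 1.55, 2.502 and 2.21 CPM in budesonide and 6.86, 6.75 and 7.38 CPM in untreated libraries, 3.35-fold lower (-1.75 ± 0.27, SE; adjusted p = 1.20e-06). In both genes the budesonide mean, 0.223 and 0.197 CPM per kb for Pcdh18 and Pcdh7, lay within the receptor background.

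Pcdh1, an epithelial protocadherin of airway and skin, was the most abundant of the fallen delta genes. It had 9.72, 9.86 and 10.7 CPM in budesonide libraries, against 29.1, 23.1 and 20.6 CPM in untreated libraries. The treated libraries were closely alike and all below the untreated ones, 2.41-fold lower in the fit (log2 fold change -1.27 ± 0.14, SE; edgeR adjusted p = 9.45e-10). Pcdh11x, an X-linked brain protocadherin, had 6, 11 and 7 reads in budesonide and 22, 25 and 30 reads in untreated libraries (-1.62 ± 0.36, SE; adjusted p = 0.000436). It lay within the receptor background per kb in both groups. Pcdh8, also called PAPC and known from the paraxial mesoderm, where its product lowers adhesion between cells, had 13.7, 12.1 and 10.3 CPM with budesonide and 14.3, 14.3 and 13.2 CPM without. Its groups overlapped and it was not called (-0.21 ± 0.15, SE; adjusted p = 0.344). Pcdh9, Pcdh10, Pcdh17 and Pcdh19 were not called either, with log2 fold changes from -0.71 to 0.02. Pcdh20, with 4, 5 and 0 reads in budesonide and 11, 8 and 7 in untreated libraries, was not tested. Outside the delta group, Pcdh12, a protocadherin of endothelium, and Pcdh15, a tip-link protein of hair cells, had log2 fold changes of -0.45 ± 0.33 and -0.12 ± 0.20 (SE) and overlapping groups.

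Pcdh18, Fat3 and Pcdh7 had the largest falls, though Pcdh18 and Pcdh7 reached the minimum level in every library of the untreated group only. The promoters of these 3 members are shown for the size of the falls, and whether the genes vary together was not tested. They are from RefSeq on GRCm38.p6, 250 bases before to 50 after the annotated start, read along the gene: Pcdh18 at chr3:49757267-49757566 (minus strand), Fat3 at chr9:16502005-16502304 (minus strand) and Pcdh7 at chr5:57717831-57718130 (plus strand). Capitals mark matches to the motifs searched.
Pcdh18: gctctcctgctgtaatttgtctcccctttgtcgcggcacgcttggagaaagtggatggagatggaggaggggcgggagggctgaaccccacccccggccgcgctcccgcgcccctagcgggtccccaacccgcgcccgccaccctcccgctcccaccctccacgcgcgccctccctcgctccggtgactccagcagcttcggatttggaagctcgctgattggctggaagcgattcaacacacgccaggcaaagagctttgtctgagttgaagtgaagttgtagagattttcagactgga
Fat3: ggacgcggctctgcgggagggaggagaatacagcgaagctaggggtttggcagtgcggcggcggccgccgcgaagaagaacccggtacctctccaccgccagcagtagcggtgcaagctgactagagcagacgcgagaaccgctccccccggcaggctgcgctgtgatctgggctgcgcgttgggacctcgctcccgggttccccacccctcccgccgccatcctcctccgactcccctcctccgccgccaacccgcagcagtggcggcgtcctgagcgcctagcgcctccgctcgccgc
Pcdh7: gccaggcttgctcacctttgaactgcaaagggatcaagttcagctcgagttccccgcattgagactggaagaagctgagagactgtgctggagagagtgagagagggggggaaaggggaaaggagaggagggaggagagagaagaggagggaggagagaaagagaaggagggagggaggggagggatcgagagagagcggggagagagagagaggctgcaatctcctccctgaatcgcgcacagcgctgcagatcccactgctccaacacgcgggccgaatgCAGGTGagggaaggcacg
Both strands were searched for 4 motifs: the glucocorticoid receptor half-site AGAACA, the TCF/LEF motif CTTTGAT, the T-box half-site GGTGTGA and the E-box CAGGTG that Snail and Zeb proteins bind. The E-box occurred once in Pcdh7, after its start, and is held by 20.2% of all 32851 promoters of the same length in the table. None of the other motifs was present in these 3 windows, and they are held by 19.0% (glucocorticoid half-site), 3.73% (TCF/LEF) and 3.98% (T-box) of all promoters. A match is a string of letters and not a shown binding site, and the lack of one concerns these windows alone. The table held promoters for 29 of the 101 members, 8 of them called, and Cdh1 was not among them. Of the other called members with a promoter, Cdh24 held 1 glucocorticoid half-site and Celsr2 2 E-boxes. The window listed for Fat1 held 1 E-box match. Its letters there look like an intron-exon boundary, so this match may not lie in a promoter. Cdh10 and Dchs2 held none of the 4 motifs. Over all 32 member windows, 4 held the glucocorticoid half-site and 7 the E-box, with that of Fat1 included. The windows were rich in G and C in Fat3 (71.3%) and Pcdh18 (63.0%), and less so in Pcdh7 (59.3%).

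The clustered protocadherins that fell stand at one end of the gamma cluster. The alpha, beta and gamma variable exons each have a promoter of their own, and the C-type genes Pcdhgc3, Pcdhgc4 and Pcdhgc5 stand last in the gamma cluster, next to the constant exons. Over all 57 clustered genes, 26 could be tested, 3 fell and none rose. The fallen share of 11.5% is near the 13.5% of all tested genes that were lower, and 15.2% of all were higher. The 3 that fell were the C types, all of those in the gamma cluster. For the count of 0 rises, no clustered gene was higher at an unadjusted p under 0.05 by edgeR, DESeq2 or limma, and 6 were lower by edgeR. The share of all tested genes at that unadjusted threshold was not taken, here or for the other subfamilies.

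Pcdhgc3, the most widely expressed gamma isoform, had 11.8, 14.3 and 12.7 CPM in budesonide libraries, against 31.1, 24.9 and 29.9 CPM in untreated libraries. It was 2.21-fold lower, with every treated library under every untreated one (log2 fold change -1.14 ± 0.13, SE; edgeR adjusted p = 9.21e-10). Pcdhgc4, needed for the survival of neurons in mice, had 2.40, 3.24 and 2.21 CPM in budesonide and 7.16, 4.64 and 4.87 CPM in untreated libraries (-1.07 ± 0.28, SE; adjusted p = 0.00245). Pcdhgc5, a late neuronal isoform, had 2.54, 3.24 and 2.21 CPM in budesonide and 4.88, 4.64 and 3.93 CPM in untreated libraries (-0.74 ± 0.29, SE; adjusted p = 0.0471). The groups of both stood apart, but the call of Pcdhgc5 was marginal. It was lost in DESeq2 (adjusted p = 0.207), with no filter on low counts (edgeR, 0.104), with the filter at 1 CPM (0.0570), and without untreated replicate 1 (0.142), 2 (0.1205) or 3 (0.0590) or budesonide replicate 1 (0.130) or 3 (0.142).

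**Figure D3:**
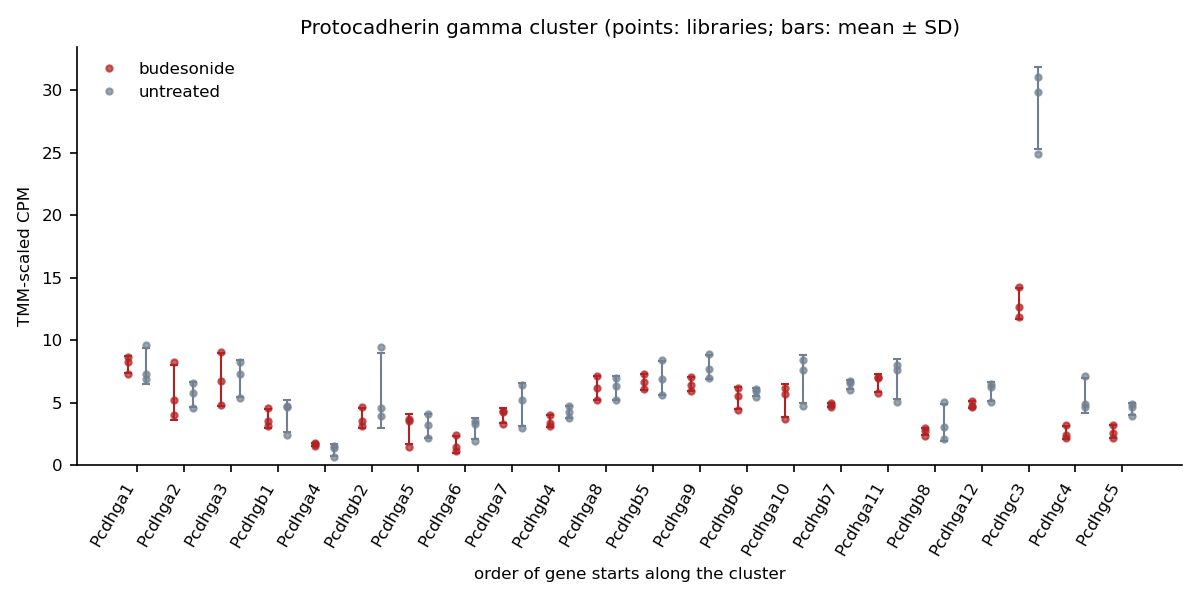
TMM-scaled CPM (y axis) of the 22 gamma cluster genes in the order of their starts along the cluster (x axis), budesonide left of untreated, with points for libraries and bars for mean ± SD (n = 3). The groups overlap in 17 of the 19 A and B types, while they do not overlap in 39.6% of all tested genes. Pcdhgc3 falls to a mean of 12.9 CPM with budesonide, against 28.6 CPM untreated.

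All 19 gamma genes of the A and B types could be tested and none was called, where 28.7% of all tested genes were. Still, 15 of the 19 log2 fold changes were below 0 (median -0.14, range -0.77 to 0.46). Pcdhga1, the most abundant of them, was at 7.33, 8.24 and 8.64 CPM in budesonide and 7.32, 6.89 and 9.58 CPM in untreated libraries, with overlapping groups (0.02 ± 0.19, SE). At an unadjusted p under 0.05, Pcdhga6 and Pcdhgb2 were lower by edgeR, 1 A or B type was lower by limma and 0 by DESeq2. The summed level of the A and B types was 93.7, 87.0 and 91.6 CPM in budesonide, against 107.6, 97.9 and 104.2 CPM in untreated libraries. For the C types it was 16.8, 20.7 and 17.1 CPM in budesonide, against 43.1, 34.2 and 38.6 CPM in untreated libraries. Both sums were lower in each treated library, by a ratio of 0.879 for the A and B types and 0.471 for the C types.

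Counted within each library, and so free of library scaling, the C types took 15.2%, 19.3% and 15.7% of the gamma reads with budesonide and 28.6%, 25.9% and 27.1% without. The exact binomial 95% intervals reached 22.3% at most in budesonide libraries and 23.1% at least in untreated libraries, and cover counting error only. The difference between the C types and the A and B types was not tested beyond these shares. Gamma genes share constant exons, and how such reads were counted is not given in the sources used here, so single members are uncertain. Reads counted for every gamma gene could number no more than the lowest gamma count in a library. That was 11, 10 and 6 reads in budesonide (Pcdhga4, Pcdhga5 with Pcdhga6, and Pcdhga6) and 9, 11 and 4 reads in untreated libraries (Pcdhga4).

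**Figure D4:**
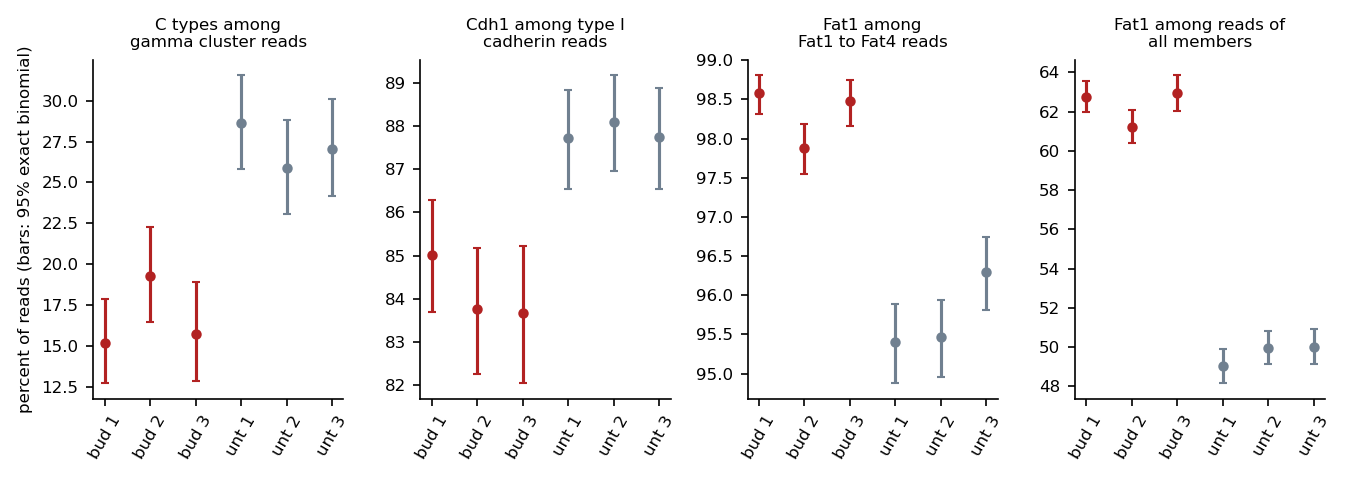
Shares of reads in percent (y axis, not from 0) in each library, budesonide (bud) left of untreated (unt), with exact binomial 95% intervals. Panels show the C types among gamma cluster reads, Cdh1 among type I reads, Fat1 among Fat reads and Fat1 among the reads of all 101 members. The treated and untreated libraries stand apart in each panel.

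The alpha and beta clusters were close to the limit of detection. Only 1 of 13 alpha and 3 of 22 beta genes had enough reads for a test, and none was called (28.7% of all tested genes were). At an unadjusted p under 0.05, Pcdhb2 was lower by edgeR (log2 fold change -1.04 ± 0.43, SE), 1 beta gene was lower by limma, and 0 genes of either cluster by DESeq2. Summed over its genes, the alpha cluster had 62, 64 and 58 reads in budesonide and 70, 91 and 76 reads in untreated libraries, which is 9.61 ± 0.978 and 11.8 ± 1.07 CPM (SD, n = 3 each). The beta cluster had 114, 147 and 67 reads in budesonide and 133, 158 and 135 reads in untreated libraries, with overlapping levels of 16.7 ± 4.69 and 21.2 ± 0.971 CPM. Pcdha11, Pcdhb14 and Pcdhb22 had log2 fold changes of -0.06 ± 0.39, 0.23 ± 0.41 and -0.40 ± 0.42 (SE). The alpha C types Pcdhac1 and Pcdhac2 together had 16, 13 and 11 reads in budesonide and 10, 17 and 12 reads in untreated libraries.

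The cytoplasmic partners of the classical cadherins changed in both directions. Of 12 catenins and linkers, 5 rose and 2 fell (median 0.04, against -0.02 over all tested genes). Those are 41.7% and 16.7%, against 15.2% and 13.5% of all tested genes. Lima1 (EPLIN), which links the cadherin-catenin complex to actin, was at 273.0, 265.2 and 273.2 CPM in budesonide libraries, against 128.0, 137.9 and 148.3 CPM in untreated libraries, 1.96-fold higher (log2 fold change 0.97 ± 0.06, SE; edgeR adjusted p = 1.43e-17). The catenins Ctnna1 (α-catenin, 0.36 ± 0.06) and Ctnnb1 (β-catenin, 0.20 ± 0.05) and plakoglobin (Jup, 0.78 ± 0.08) rose, as did the nectin linker Afdn (0.30 ± 0.06). p120-catenin (Ctnnd1), which holds cadherins at the surface, was not called (-0.12 ± 0.13, SE; adjusted p = 0.541). Neural α-catenin (Ctnna2) fell by 1.17 on the log2 scale. Vinculin (Vcl, -0.19 ± 0.07, SE) fell, but was not called in DESeq2 (adjusted p = 0.191), in limma (0.0992) or without untreated replicate 2 (edgeR, 0.174) or 3 (0.0946) or budesonide replicate 2 (0.202) or 3 (0.0627).

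Transcription factors known to repress Cdh1 did not move one way. Of 8 on the list, 6 could be tested, 3 fell (50%, against 13.5% of all tested genes) and 1 rose (16.7%, against 15.2%). Zeb2 (-1.67 ± 0.11), Snai1 (-0.89 ± 0.25) and Tcf3 (-0.52 ± 0.07) fell and Zeb1 (1.09 ± 0.11) rose (log2 fold change ± SE). Snai1 was not called in DESeq2 (adjusted p = 0.0535). Among 13 genes of cadherin processing and turnover, the kinase gene Src fell (-0.68 ± 0.10, SE) and none rose. The fallen share was 7.69%, under the 13.5% of all tested genes, and 15.2% of all were higher. None of the 13 was higher at an unadjusted p under 0.05 by edgeR, DESeq2 or limma. The sheddase Adam10 (-0.13 ± 0.15) and the prodomain protease Furin (-0.16 ± 0.12) were not called (named after their values were seen).

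Planar polarity genes that work with Celsr, Fat and Dchs included 6 that fell and 2 that rose among 14. Those are 42.9% and 14.3%, against 13.5% and 15.2% of all tested genes. Fjx1, a homologue of the fly four-jointed kinase that modifies Fat and Dachsous, fell to 11.7, 7.36 and 8.82 CPM in budesonide libraries, against 25.2, 24.0 and 20.1 CPM in untreated libraries (log2 fold change -1.31 ± 0.15, SE; edgeR adjusted p = 1.47e-09). Prickle1 (-0.96 ± 0.08) and the receptor Fzd6 (-1.22 ± 0.19) fell with Celsr1 and Celsr2, and Dvl2 (0.30 ± 0.07) rose. Vangl1 (0.27 ± 0.10) also rose, but its adjusted p was 0.0323, and it was not called without untreated replicate 1 (0.0511) or 3 (0.0976) or budesonide replicate 2 (0.0557) or 3 (0.0827), in DESeq2 (0.101) or with 3 other alternatives.

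**Figure D5:**
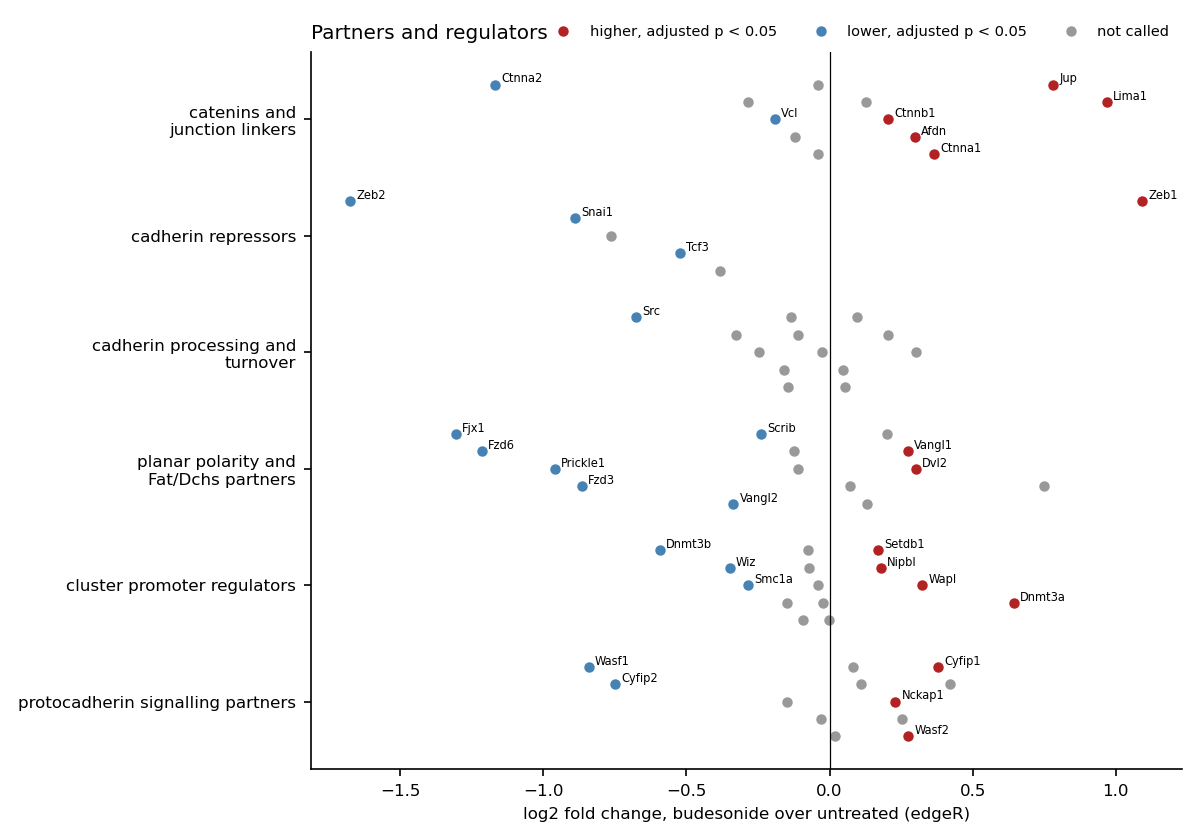
Log2 fold change (budesonide over untreated, x axis) of the tested genes in the 6 lists of partners and regulators (rows), coloured by the edgeR call at an adjusted p under 0.05. Of the called catenins and linkers 5 lie right of 0 and 2 left, and of the called planar polarity genes 2 lie right and 6 left, with Fjx1 at -1.31.

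Regulators of protocadherin promoter choice, among them the looping factors of the clusters, gave 4 rises and 3 falls among 14. Those are 28.6% and 21.4%, against 15.2% and 13.5% of all tested genes. Ctcf (-0.04 ± 0.06), which bridges cluster promoters and enhancers, the cohesin subunit Rad21 (-0.02 ± 0.06) and Smchd1 (-0.09 ± 0.06), which silences cluster genes, were not called (named after their values were seen). The cohesin release factor Wapl rose (0.32 ± 0.06, SE), as did the loader Nipbl (0.18 ± 0.06). Nipbl was not called without untreated replicate 1 (edgeR adjusted p = 0.0618) or budesonide replicate 1 (0.0784), with upper quartile scaling (0.0602), library totals alone (0.146) or no filter (0.108). The de novo DNA methyltransferases moved apart, with Dnmt3b lower (-0.59 ± 0.05, SE) and Dnmt3a higher (0.64 ± 0.06). Smc1a (-0.29 ± 0.06) and Wiz (-0.35 ± 0.07) fell.

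Signalling partners of protocadherins gave 3 rises and 2 falls among 12, which is 25% and 16.7%, against 15.2% and 13.5% of all tested genes. In the actin-regulating WAVE complex, which several delta protocadherins bind, pairs of paralogues differed in direction: Cyfip1 (0.38 ± 0.06) and Wasf2 (0.27 ± 0.06) rose, and Cyfip2 (-0.75 ± 0.08) and Wasf1 (-0.84 ± 0.09), the more neural paralogues, fell (log2 fold change ± SE). Nckap1, a shared subunit, rose (0.23 ± 0.06). Beside these, the 6 tested neural markers split: Pax6, Tubb3 and Stmn2 rose and Dcx, Elavl3 and Map2 fell. Those are 50% each way, against 15.2% and 13.5% of all tested genes. The summed level of the 9 listed genes was 158.4 ± 2.97 CPM in budesonide and 109.8 ± 2.34 CPM in untreated libraries (SD, n = 3 each). Most of that sum was Stmn2, at 109.2, 98.7 and 106.3 CPM in budesonide and 57.5, 55.5 and 64.4 CPM in untreated libraries. In 3 other marker lists the difference between the sums was mainly that of 1 gene. Of 10 endothelial markers, Pecam1 averaged 81.8 ± 2.84 CPM in budesonide and 27.7 ± 1.16 CPM in untreated libraries, and the other 9 together 43.7 ± 4.52 and 43.4 ± 3.11 CPM. Of 7 somite and mesenchyme markers, Tcf15 rose, with 30.4 ± 2.72 CPM in budesonide and 21.3 ± 1.39 CPM in untreated libraries, and the other 6 together had 14.0 ± 1.59 and 16.4 ± 1.70 CPM. Of 6 endoderm markers, Foxa2 fell, with 0.811 ± 0.433 CPM in budesonide and 11.2 ± 2.85 CPM in untreated libraries, and the other 5 together had 4.70 ± 0.904 and 5.84 ± 1.53 CPM. The part of such cells in the values of the members was not tested. Pluripotency markers, which define the starting cells, summed to 1823 ± 95.7 CPM in budesonide and 1239 ± 25.0 CPM in untreated libraries over 6 genes. Nanog, Sox2, Esrrb and Zfp42 rose (66.7%, against 15.2% of all tested genes). Pou5f1 and Tdgf1 were not called (edgeR adjusted p = 0.290 and 0.0860).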

How the data were processed

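The authors deposited raw counts for each gene symbol and library, and a table of normalized signal in which those counts had been divided by 1 factor per library (checked to within 0.0614 reads). Per the submitters' processing notes, the tools were STAR 2.7.5c, featureCounts 2.0, cutadapt 2.5, bcl2fastq and DESeq2 with the build GRCm39. Parameters, annotation and the use of strand in counting: not given in the sources used here. Overlapping and antisense genes therefore cannot be told apart. The labels' titles gave the group and replicate of each library. Replicates differed by 1.43 to 3.14 chi-square units per gene (1 is sampling noise), so no library's counts were those of another deposited again, and whether the cultures were separate is not shown by it.

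All genes were fitted in edgeR 4.0.16 (R 4.3.3) with filterByExpr at a minimum count of 10 and a total of 15, TMM scaling and robust quasi-likelihood fits on the group. Benjamini-Hochberg adjustment ran over 17155 genes with a threshold of 0.05, and standard errors were derived from the F statistic. Exon lengths came from GENCODE M21, of another build than the counts, and include the shared constant exons of alpha and gamma cluster genes.

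Members and gene lists were chosen with earlier results of these data known. The text names members that were called, all type I cadherins, Celsr, Fat and Dchs genes, the 2 most abundant tested members of each subfamily or cluster, and in each partner list the 3 risen and 3 fallen genes of smallest adjusted p, if averaging 1 CPM or more, besides 4 catenin genes. Other names serve the account of all members or were chosen after their values were seen. Alternatives were DESeq2 1.42.0, RLE and upper quartile scaling, library totals alone, no filter, a filter at 1 CPM in 3 libraries, the replicate number as a block, limma 3.58.1 on log2 of the deposited normalized signal plus 1 (mean of at least 10), a threshold of 0.01 and each library left out.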

Additional observations from a re-analysis of the deposited data

How the results depend on the processing

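The counts of fallen members ranged from 13 (DESeq2) to 20 (library totals alone) around 17, and from 14 to 18 with each library left out. The count of risen members was 1 rather than 2 with library totals alone, in DESeq2 and at a threshold of 0.01, and 1 to 2 with each library left out. Fallen clustered genes numbered 2 to 4 over these alternatives and none rose in any of them. Of the fallen members of the original fit, 13 were also called by DESeq2, 15 with no filter and 17 with the block. With library totals alone the log2 ratio of the summed level was -0.46 for the gamma cluster (-0.38 with TMM) and -0.38 for the type I cadherins (-0.30 with TMM). With each library left out it ranged from -0.43 to -0.33 for the gamma cluster, from -0.35 to -0.26 for the type I cadherins, from -0.38 to -0.23 for the alpha cluster and from -0.59 to -0.19 for the beta cluster. The replicate number as a block gave the same 17 fallen and 2 risen members. Deviations of same-numbered libraries correlated at 0.04, 0.06 and -0.02, and not every sample correlated best with its own number. No pairing by number was seen, but so few libraries cannot exclude one.

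Among the 60 genes refitted under the alternatives, signs changed only for ones that were not called. With upper quartile scaling, library totals alone and no filter, Celsr3 was at -0.027, -0.0538 and -0.00169, and Pcdhga1 at -0.0277, -0.0538 and -0.00296. With each library left out the log2 fold change ranged from -0.0150 to 0.0932 for Celsr3, -0.398 to 0.0162 for Fat2, -0.292 to 0.0321 for Fat4, -0.340 to 0.0184 for Pcdh15, -0.227 to 0.106 for Pcdha11, -0.348 to 0.510 for Pcdhb14, -1.06 to -0.0760 for Pcdhb22 (no change of sign) and -0.0679 to 0.192 for Pcdhga1. Members not called in the original fit passed as lower in single alternatives: Pcdh19 with upper quartile scaling or library totals alone, Cdh2 with library totals alone, Pcdhb2 with library totals alone or without budesonide replicate 2, Pcdh9 without budesonide replicate 2, and Pcdhgb2 without untreated replicate 1 or 2. Where no value above shows it, the cause was not tested. Depth limits the clustered genes most: 31 of the 57 were not tested.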
